A study of Mus musculus with 24 samples.

Results

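The genes described here encode collagens, laminins and the proteases that cut the extracellular matrix, with the inhibitors of those proteases. Members were chosen by symbol (names starting Col, Lam, Adam, Adamts, Mmp, Timp, Fbln or Thbs, plus Fn1 and Sparc) and by a scanner signal of at least 80 intensity units on at least 3 of 24 arrays. Of 131 gene symbols on the array that fit these names, 52 were members, measured by 56 probes out of 24613 probes with values, and all 52 were among the 10886 genes tested. They comprised 10 collagens, 6 laminin chains, 4 other matrix glycoproteins, 7 secreted matrix metalloproteinases, 3 membrane-bound ones, 4 tissue inhibitors of metalloproteinases, 6 ADAMTS proteases and 11 ADAM proteins. The last member, Col4a3bp, matched by its symbol only and encodes a ceramide transfer protein now called Cert1; it was higher by 0.48 ± 0.12 (adjusted p = 0.00193) at 15 h of 1 µM, and without it 16 of 51 members were higher and 11 lower at that time.

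Collagen IV and laminins build basement membranes, the sheets that surround brain vessels and underlie the pial surface, while fibronectin and thrombospondins are glycoproteins that link matrix to cell receptors. Metalloproteinases degrade these proteins and TIMPs block them, so the amount of matrix depends on synthesis, cleavage and inhibition together. In the brain, ADAMTS proteases cleave the proteoglycans of the perineuronal matrix, and several ADAM proteins release growth factors and receptors from the cell surface or, where they lack protease activity, act as synaptic adhesion partners.

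RNA came from primary neocortical neurons of Swiss Albino mouse fetuses of gestation day 15 to 16, studied on day 5 in culture. Lactacystin, an inhibitor of the proteasome, was applied at 1 µM, with 3 arrays each at 5, 8, 15 and 24 h, and at 0.1 µM, with 3 arrays each at 15 and 24 h, and 6 arrays came from cultures labelled as having had no treatment. The labels describe a stock of the drug in dimethyl sulfoxide diluted in Neurobasal medium, and give neither a vehicle nor a collection time for the untreated cultures. Whether each array had its own culture is not stated, so p-values measure the spread between arrays, which may be technical.

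Median signal was 52.2 to 81 intensity units per array, and 11275 to 12418 probes per array were detected. The 24 arrays lay on 3 slides of 8, each with 2 untreated arrays and 1 array of every treated group. Over all genes the root mean square difference between arrays was 0.21 to 0.311 log2 units within treated groups and 0.289 to 0.546 among untreated arrays. Untreated replicates 2 and 4 stood apart in Gfap, an astrocyte filament gene, with the highest 2 untreated levels (up to 7.96 log2 intensity), where the other untreated arrays had 5.48 to 6.25. These cultures were not neurons alone: 8 of 10 astrocyte markers, 9 of 11 oligodendrocyte lineage markers, 5 of 10 microglia markers and 8 of 10 neuronal markers could be measured, but 2 of 10 endothelial markers (Pecam1, Cdh5 and Kdr were not measured), 3 of 9 mural markers and 4 of 12 leptomeningeal markers. The 11 oligodendrocyte lineage symbols include Cnp and Cnp1, names of the same gene. Measured means that a probe of the gene was detected on at least 3 arrays, so a marker not measured may have been on the array and undetected. In bulk RNA, fewer cells of a type and less RNA per cell cannot be told apart. Values below are background-corrected, normalised log2 intensities, and a change is the difference of group means ± its standard error from limma, with p-values adjusted by Benjamini-Hochberg over the 10886 genes and called below 0.05.

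At 1 µM lactacystin, calls were fewer at 5 h than later and went in both directions from 8 h on, among the 52 members as over all tested genes. Relative to untreated cultures, 2 members were higher and 0 lower at 5 h, where 10.3% of the tested genes were called (6.19% higher, 4.08% lower). At 8 h 6 were higher and 11 lower, where 39.9% of the genes were called (20.1% higher, 19.8% lower). At 15 h 17 were higher and 11 lower, where 54.9% were called (27.2% higher, 27.7% lower), and at 24 h 22 were higher and 11 lower, where 57.4% were called (26.7% higher, 30.7% lower). The median change over the members was 0.11 at 15 h and 0.18 at 24 h, and over the tested genes 0.00 and -0.05. In total 28 of 52 members at 15 h and 33 of 52 at 24 h were called, close to the shares over all genes. Counts of rises also carry the selection on signal: 35 members reached 80 units on at least 3 untreated arrays, and of these 10 were higher and 10 lower at 24 h. The other 17 reached it mainly through treated arrays, and had 12 higher and 1 lower.

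From one time to the next, 2 members increased and 3 decreased between 5 and 8 h, where 17.6% of the genes were called (9.25% upward, 8.34% downward). Between 8 and 15 h 16 increased and 7 decreased (33.2% of the genes called, 15.2% upward and 17.9% downward), and between 15 and 24 h 13 increased and 0 decreased (11.7% called, 5.59% upward and 6.12% downward). These counts carry the selection on signal too. The 35 members at 80 units on at least 3 untreated arrays had 8 increases and 7 decreases from 8 to 15 h. From 15 to 24 h they had 6 and 0. The other 17, which passed mainly through treated arrays, had 8 and 0, then 7 and 0. Without 15 h replicate 1 the last of these steps had 8 calls, and without 8 h replicate 1 the 8 h comparison with untreated cultures had 10. At 5 h single arrays moved the count between 0 (without 5 h replicate 3) and 6 (without untreated replicate 6). Groups did not overlap with the untreated arrays for 2 members at 5 h, 11 at 8 h, 26 at 15 h and 30 at 24 h, and 10.5%, 30.7%, 43.2% and 45.8% of the tested genes had no overlap in the same comparisons. Between successive times 13 members had no overlap from 5 to 8 h (42.4% of the genes), 31 from 8 to 15 h (52.5%) and 25 from 15 to 24 h (37.2%).

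**Figure D1:**
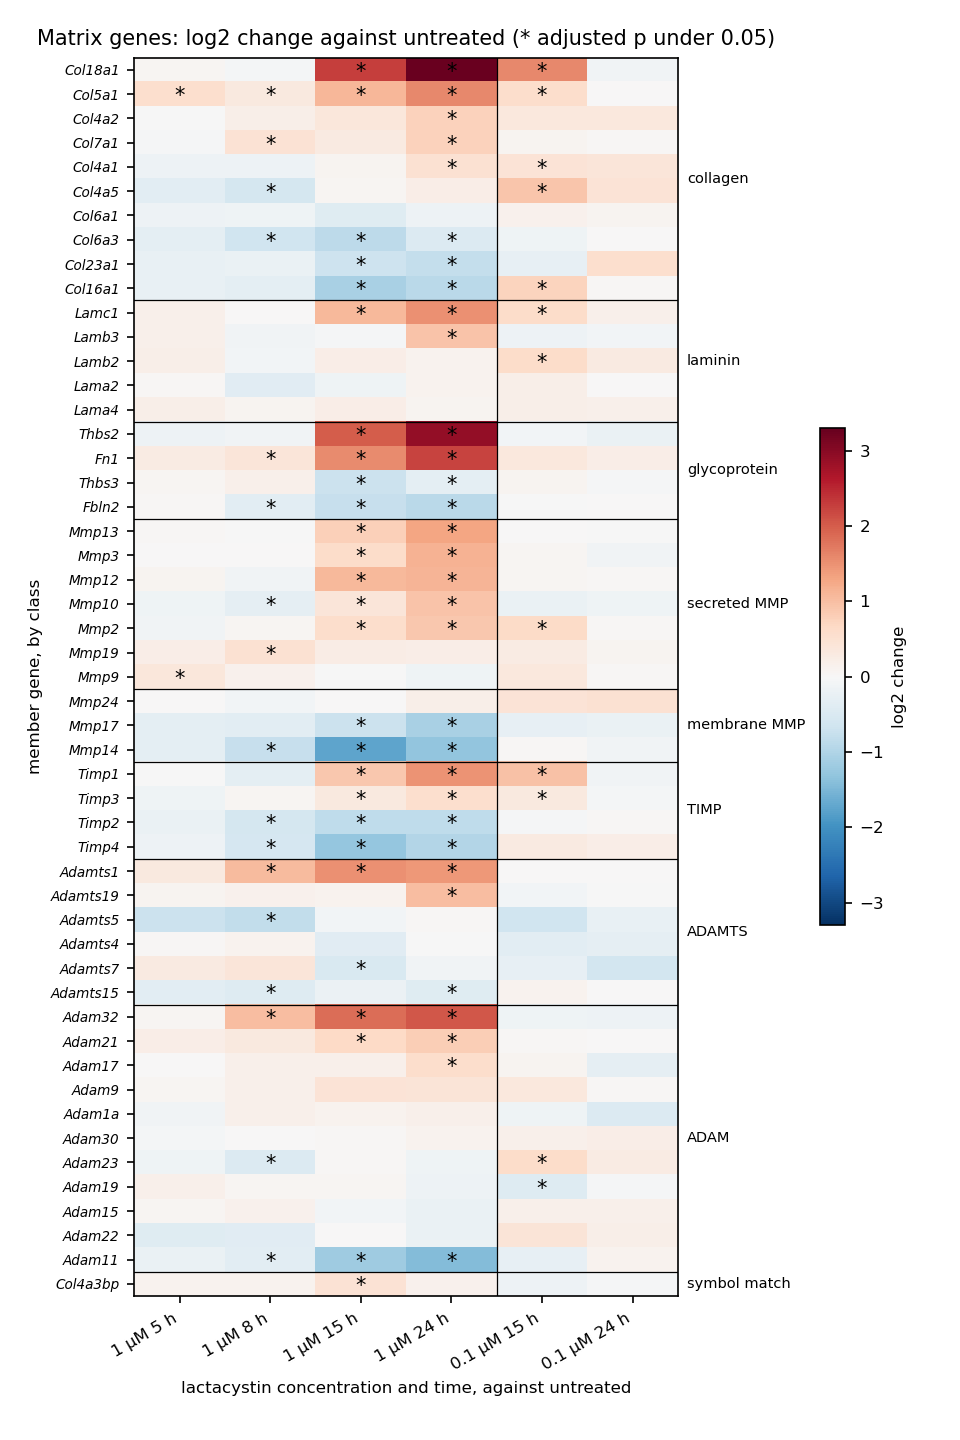
Fitted log2 change, also where a probe was not detected in a group, against untreated cultures of 51 of the 52 members (down the page, grouped by role) in the 6 treated groups (across), with the colour scale in log2 units. Thbs2, Col18a1, Fn1 and Adam32 were highest above untreated at 24 h of 1 µM, Mmp14, Adam11 and Timp4 were among those below it, and no member was called at 24 h of 0.1 µM.

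Of the 10 collagens, 5 were higher and 3 lower at 24 h of 1 µM (26.7% and 30.7% of all tested genes), and 2 were higher and 3 lower at 15 h (27.2% and 27.7%). Col18a1, a basement membrane collagen whose end fragment is endostatin, had the largest rise of any collagen. It had 8.13, 8.06 and 8.19 at 15 h and 9.02, 8.99 and 9.35 at 24 h of 1 µM, against 5.22, 5.80 and 6.53 as the lowest, median and highest of the untreated arrays, the form used for untreated values throughout. Each array at these times lay above all 6 untreated ones, whereas the arrays at 5 h (5.99, 5.97 and 5.82) and 8 h (5.77, 5.96 and 5.63) lay among them. The change was 2.27 ± 0.21 (adjusted p = 6.54e-09) at 15 h and 3.26 ± 0.21 (adjusted p = 1.78e-11) at 24 h, a 9.6-fold higher intensity. Untreated replicates 2 and 4, which stood apart in Gfap, were also the highest untreated arrays for Col18a1, at 6.53 and 6.43.

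Col5a1, a chain of the fibrillar collagen V that starts collagen fibrils, was called at every time of 1 µM. Its arrays had 7.37, 7.32 and 7.47 at 5 h, 7.05, 6.96 and 7.46 at 8 h, 7.91, 7.78 and 8.12 at 15 h and 8.27, 8.45 and 8.52 at 24 h, against 6.57, 6.82 and 7.09 in untreated cultures. All arrays at 5, 15 and 24 h were above the untreated range, and 2 of the arrays at 8 h were within it. The change was 0.55 ± 0.13 (adjusted p = 0.00755) at 5 h and 1.58 ± 0.13 (adjusted p = 6.56e-10) at 24 h. The 5 h call did not hold without replicate 3 of that group (0.51, adjusted p = 0.0581), nor the 8 h call of 0.32 without replicate 3 of its group (0.17, adjusted p = 0.359), and the 8 h call held in 17 of 39 settings.

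Col4a1 and Col4a2 encode the chains of the main collagen IV network and lie head to head on chromosome 8. At 24 h of 1 µM Col4a2 had 10.24, 10.32 and 10.29, against 8.75, 9.59 and 9.95 in untreated cultures, and Col4a1 had 8.23, 8.49 and 8.40, against 7.56, 7.91 and 8.15. Both were above all untreated arrays at 24 h, by 0.77 ± 0.17 (adjusted p = 0.000442) for Col4a2 and 0.49 ± 0.14 (adjusted p = 0.00397) for Col4a1. At 15 h of 1 µM Col4a2 had 9.88, 9.80 and 10.02 and Col4a1 7.86, 8.01 and 8.09, and neither change was called, although Col4a2 passed with the slide as a block when slides were taken from the scanner match (0.38, adjusted p = 0.0259), and not with slides as labelled (adjusted p = 0.0566). The window from 250 bases before to 50 after the start of Col4a2 (chr8:11312555-11312854, plus strand, RefSeq, GRCm38.p6) shows how close the genes stand, since its last 78 bases, in capitals, also belong to the window of Col4a1 on the other strand.
Col4a2: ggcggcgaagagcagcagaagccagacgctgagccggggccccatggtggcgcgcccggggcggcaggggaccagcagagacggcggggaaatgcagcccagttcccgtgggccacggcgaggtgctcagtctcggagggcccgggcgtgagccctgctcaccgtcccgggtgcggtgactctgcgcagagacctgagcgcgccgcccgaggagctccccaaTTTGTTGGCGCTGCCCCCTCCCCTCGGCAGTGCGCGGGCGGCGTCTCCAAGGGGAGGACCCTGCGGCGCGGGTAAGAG

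The 3 collagens that fell at 15 and 24 h of 1 µM were Col16a1, Col6a3 and Col23a1. Col16a1, a fibril-associated collagen, had 6.65, 6.97 and 7.13 at 15 h and 6.92, 7.06 and 7.33 at 24 h of 1 µM, against 7.65, 7.88 and 8.67 in untreated cultures. No array at either time reached the untreated range, and the change was -1.07 ± 0.16 (adjusted p = 7.14e-06) at 15 h and -0.88 ± 0.16 (adjusted p = 7.11e-05) at 24 h. Col6a3, a chain of the microfibrillar collagen VI, had 5.05, 5.03 and 4.63 at 15 h, when it was detected on none of the 3 arrays, against 5.01, 5.90 and 6.06 in untreated cultures, at least 1.57-fold lower (adjusted p = 0.000363). The arrays had 4.84, 5.26 and 5.21 at 8 h and 5.40, 5.32 and 5.20 at 24 h, and 1 untreated array at 5.01 kept the groups from separating at all 3 times. Its calls of -0.66 at 8 h and -0.46 at 24 h did not hold in every setting. The 24 h call of Col6a3 was lost without any 1 of the 24 h arrays (adjusted p = 0.054, 0.0767 and 0.116) or without untreated replicate 1, 2, 3 or 4, and the 8 h call without 8 h replicate 1 (-0.53, adjusted p = 0.0565). Col23a1, a membrane-spanning collagen, was not detected on any array at 15 or 24 h of 1 µM and was at least 1.31-fold and 1.42-fold lower at those times (adjusted p = 0.00188 and 0.000532).

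Col7a1, which forms anchoring fibrils in skin, had 5.89, 5.93 and 5.88 at 8 h and 6.40, 6.08 and 6.08 at 24 h of 1 µM, against 4.95, 5.49 and 5.92 in untreated cultures. Only the 24 h arrays lay wholly above the untreated ones, by 0.76 ± 0.18 (adjusted p = 0.00107), and the 8 h call (0.47 ± 0.18 (adjusted p = 0.0406)) was lost when any 1 of the 8 h arrays or untreated replicate 1, 2 or 5 was left out (adjusted p of 0.0573 to 0.106). Col4a5, a chain of the less widespread collagen IV network, had 6.24, 6.43 and 6.14 at 8 h, against 6.26, 6.98 and 7.29 in untreated cultures. These ranges overlapped, and the call of -0.58 ± 0.20 (adjusted p = 0.026) was lost without 8 h replicate 1 or 3 or untreated replicate 2 or 4 (-0.49 to -0.56, adjusted p of 0.0559 to 0.103). Col6a1 was not called in any comparison with untreated cultures, although at 15 h of 1 µM it passed with the slide as a block by the scanner match (-0.39, adjusted p = 0.0217), and not by label (adjusted p = 0.0631).

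Among the laminin chains, Lamc1 and Lamb3 were higher at 24 h of 1 µM. Lamc1, the gamma chain of most laminins, had 8.61, 8.76 and 8.76 at 15 h and 9.08, 9.18 and 9.14 at 24 h, against 7.41, 7.62 and 7.89 in untreated cultures. The groups were far apart, with the lowest 15 h array above the highest untreated one, and the change was 1.08 ± 0.12 (adjusted p = 9.33e-08) at 15 h and 1.50 ± 0.12 (adjusted p = 5.49e-10) at 24 h. At 5 and 8 h the arrays of Lamc1 had 7.79, 7.76 and 7.87 and 7.42, 7.73 and 7.75, within the untreated range. Lamb3, a beta chain of epithelial basement membranes, was higher by 0.93 ± 0.14 (adjusted p = 6.25e-06) at 24 h and was detected on 3 of 3 arrays at that time and 2 of 6 untreated ones. At 15 h it was detected on none of the 3 arrays. Lamb3 reached 80 units only on the 3 arrays at 24 h of 1 µM, so it is a member only through the group where it was higher. Lama2, Lama4 and Lamb2 were not called at any time of 1 µM.

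The 4 other matrix glycoproteins divided evenly, with 2 higher and 2 lower at both 15 h (27.2% and 27.7% of all tested genes) and 24 h (26.7% and 30.7%) of 1 µM. Thbs2, a thrombospondin of the kind that astrocytes secrete and that promotes synapse formation, had 6.51, 6.65 and 6.93 at 15 h and 7.69, 7.65 and 7.52 at 24 h. Untreated arrays had 4.57, 4.72 and 4.80, and none of them detected the probe, nor did any array at 5 or 8 h of 1 µM or at either time of 0.1 µM. Thbs2 was therefore at least 3.1-fold higher at 15 h and at least 5.87-fold higher at 24 h (adjusted p = 2.96e-14 and 5.42e-17). It was first detected at 15 h and increased again, by 0.92 ± 0.10 (adjusted p = 2.96e-06), between 15 and 24 h. Thbs2 reached 80 units only on the 15 and 24 h arrays of 1 µM, so it is a member only through the groups where it was higher.

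Fn1, which encodes fibronectin, was detected on all arrays by the probe used, and its probes not kept were detected on 0 to 2 arrays. Its arrays had 5.75, 5.97 and 6.07 at 8 h, 6.95, 7.17 and 7.20 at 15 h and 7.63, 7.87 and 7.82 at 24 h of 1 µM, against 5.27, 5.45 and 5.94 in untreated cultures. The 15 and 24 h arrays were all above the untreated range, and 1 of the 8 h arrays was inside it. The change was 1.57 ± 0.14 (adjusted p = 2.55e-09) at 15 h and 2.24 ± 0.14 (adjusted p = 7.43e-12) at 24 h, 4.71-fold. The smaller 8 h change (0.40 ± 0.14 (adjusted p = 0.024)) was lost without 8 h replicate 2 or 3 or untreated replicate 1 (0.33 to 0.38, adjusted p of 0.0527 to 0.122). Fbln2, a fibulin of basement membranes and elastic fibres, changed by -0.75 ± 0.11 (adjusted p = 4.86e-06) at 15 h and -0.89 ± 0.11 (adjusted p = 4.11e-07) at 24 h, with no overlap of groups at either time. Thbs3 changed by -0.70 ± 0.11 (adjusted p = 1.2e-05) at 15 h, and its 24 h change of -0.33 was lost without 24 h replicate 1 (-0.27, adjusted p = 0.0818).

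**Figure D2:**
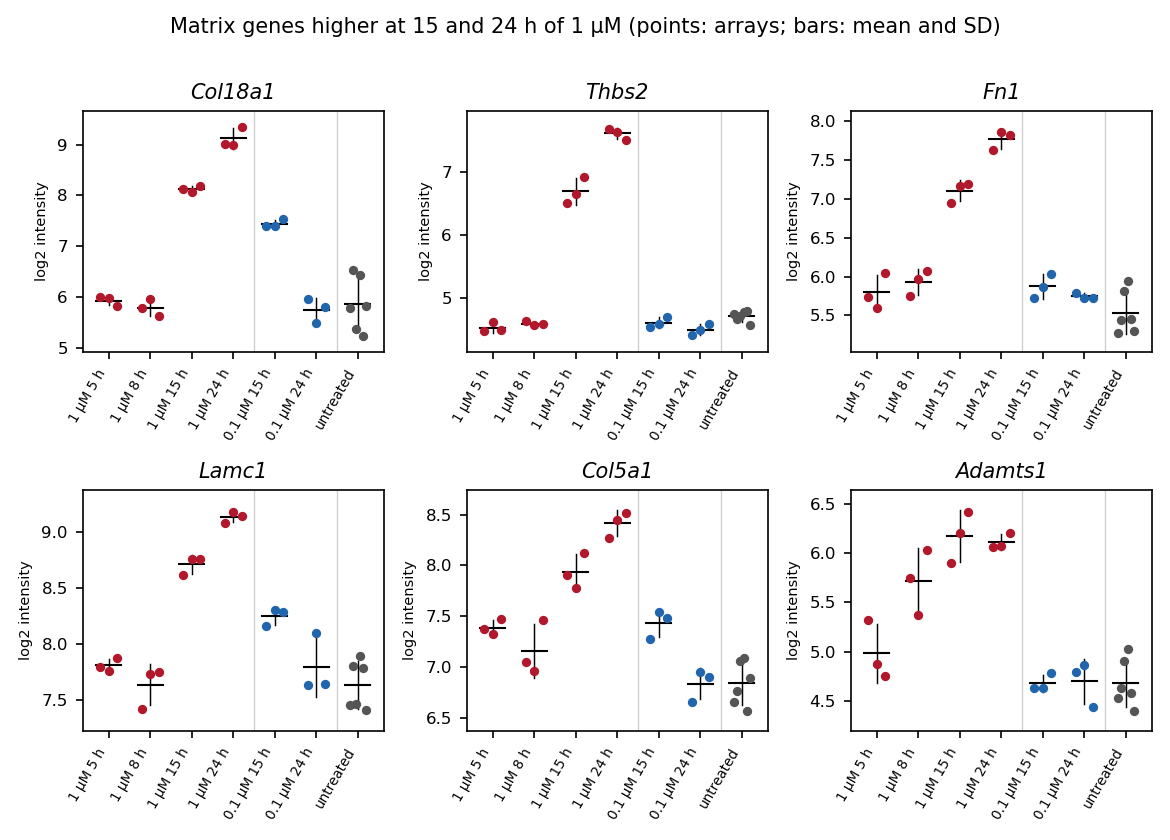
Log2 intensity (vertical axes) of Col18a1, Thbs2, Fn1, Lamc1, Col5a1 and Adamts1 on each array, by group, with bars for mean and SD. The 15 and 24 h arrays of 1 µM (red) were above all 6 untreated arrays (grey) in each panel, and at 0.1 µM (blue) Col18a1, Lamc1 and Col5a1 were above them at 15 h.

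Of the 7 secreted metalloproteinases, 5 were higher and 0 lower at both 15 h (27.2% and 27.7% of all tested genes) and 24 h (26.7% and 30.7%) of 1 µM. All 5 were among the 17 members that reached 80 units on fewer than 3 untreated arrays, and passed mainly through 15 and 24 h arrays, so nothing is read from this count. The 5 were Mmp2 and 4 genes of the metalloproteinase cluster of chromosome 9. In the same cluster Mmp1b, between Mmp12 and Mmp3, and Mmp1a, between Mmp3 and Mmp10, were detected on no array. Nor were Mmp7, Mmp8 and Mmp20. In order along the chromosome the 4 genes are Mmp13, a collagenase, Mmp12, the macrophage elastase, and Mmp3 and Mmp10, which are stromelysins. All 4 have a start window that holds the motif TGANTCA, the binding sequence of the AP-1 factors known from collagenase and stromelysin promoters, so the windows (250 bases before and 50 after the start, plus strand, RefSeq, GRCm38.p6) are shown with the motif in capitals. They lie at chr9:7272264-7272563 for Mmp13, chr9:7347124-7347423 for Mmp12 (the second of its 2 starts), chr9:7445572-7445871 for Mmp3 and chr9:7502092-7502391 for Mmp10.
Mmp13: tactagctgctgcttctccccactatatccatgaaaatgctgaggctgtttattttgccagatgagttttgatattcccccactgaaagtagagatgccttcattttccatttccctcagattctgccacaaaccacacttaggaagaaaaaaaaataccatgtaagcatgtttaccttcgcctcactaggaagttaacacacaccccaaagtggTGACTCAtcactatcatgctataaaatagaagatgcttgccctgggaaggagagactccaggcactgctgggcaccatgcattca
Mmp12: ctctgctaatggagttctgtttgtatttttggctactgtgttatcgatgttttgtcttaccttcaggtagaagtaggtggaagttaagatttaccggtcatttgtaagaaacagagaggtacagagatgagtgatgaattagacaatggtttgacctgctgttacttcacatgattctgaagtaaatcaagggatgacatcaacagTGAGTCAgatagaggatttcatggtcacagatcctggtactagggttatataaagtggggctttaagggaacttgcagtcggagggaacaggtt
Mmp3: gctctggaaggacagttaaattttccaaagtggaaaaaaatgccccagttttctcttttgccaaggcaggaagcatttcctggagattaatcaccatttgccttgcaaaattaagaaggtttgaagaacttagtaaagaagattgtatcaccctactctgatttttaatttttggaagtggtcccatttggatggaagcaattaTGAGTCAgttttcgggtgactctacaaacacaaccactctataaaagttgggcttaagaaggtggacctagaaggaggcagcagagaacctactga
Mmp10: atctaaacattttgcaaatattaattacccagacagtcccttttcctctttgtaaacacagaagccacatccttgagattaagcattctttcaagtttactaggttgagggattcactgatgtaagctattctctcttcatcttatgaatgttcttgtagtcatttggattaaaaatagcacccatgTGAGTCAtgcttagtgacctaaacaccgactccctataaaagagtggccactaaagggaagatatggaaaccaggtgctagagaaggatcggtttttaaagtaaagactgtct

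The motif begins 35 bases before the start in Mmp13, 44 in Mmp12, 46 in Mmp3 and 63 in Mmp10. On either strand, 6 of the 35 members with a window held it (17.1%), the others being Col6a1 and Adam19, and 8.97% of the 27025 genes in the RefSeq table did. A match is a description of the letters, and binding was not measured.

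At 24 h of 1 µM these 4 proteases were detected on every array. Mmp10 ranged from 6.15 to 6.21 at 24 h and from 5.53 to 5.75 at 15 h, against 5.07 to 5.38 in untreated cultures, a change of 0.95 ± 0.09 (adjusted p = 8.4e-09) at 24 h. Mmp12 ranged from 5.55 to 6.30 at 24 h, against 4.44 to 5.43, a change of 1.13 ± 0.21 (adjusted p = 8.37e-05), although 1 of the 6 untreated arrays detected it. Mmp13 and Mmp3 were detected on no untreated array and were at least 1.55-fold and 1.58-fold higher at 24 h (adjusted p = 2.42e-12 and 5.86e-07). These were low signals throughout: Mmp13 ranged from 5.61 to 5.80 at 24 h, against 4.36 to 4.44, and Mmp3 from 5.33 to 6.15, against 4.43 to 4.69. The Mmp3 probe used reached 80 units on 2 arrays, and a second probe, which met the threshold, on 3. At 24 h the second probe had a fitted change of 1.72 and the one used 1.15. At 8 h Mmp10 was instead at least 1.09-fold lower (adjusted p = 0.0113), a call lost without 8 h replicate 1 (-0.23, adjusted p = 0.0887).

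Microglial markers were also higher in sum at 24 h. The 5 microglial markers measured of 10 summed to 504.3 to 622 intensity units at 24 h and 282.7 to 297.2 units at 15 h of 1 µM, against 184.3 to 282.7 in untreated cultures. Within the list Cd68, a lysosomal protein, changed by 2.86 ± 0.28 (adjusted p = 1.31e-08) at 24 h and Cx3cr1 by 1.95 ± 0.13 (adjusted p = 2.18e-11), whereas C1qb changed by -0.89 ± 0.15 (adjusted p = 4.15e-05), C1qa by -0.71 ± 0.19 (adjusted p = 0.0034) and Aif1 by -0.42 ± 0.16 (adjusted p = 0.0297). Csf1r, Itgam, P2ry12, Tyrobp and Fcer1g had no probe detected on at least 3 arrays and so were not measured. The part of microglia in the metalloproteinase result was not tested.

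Mmp2 and Mmp9 encode gelatinases, which cut denatured collagen and collagen IV. Mmp2 had 5.46, 5.48 and 5.29 at 15 h and 5.62, 5.65 and 5.86 at 24 h of 1 µM, against 4.53, 4.74 and 5.22 in untreated cultures, of which 2 detected it. The arrays at both times lay above the untreated range, by 0.58 ± 0.14 (adjusted p = 0.00112) and 0.88 ± 0.14 (adjusted p = 1.15e-05). Mmp9 had 5.71, 5.73 and 6.04 at 5 h, against 5.21, 5.46 and 5.85 in untreated cultures, and these ranges overlapped. Its change of 0.37 ± 0.12 (adjusted p = 0.0491) kept its call in 9 of 39 alternative settings and lost it without any 1 of the 5 h arrays, and at 15 and 24 h it was -0.02 and -0.14 and not called. Mmp19 had 5.68, 5.44 and 5.78 at 8 h, against 4.95, 5.08 and 5.37, a change of 0.50 ± 0.14 (adjusted p = 0.00784) that was lost without 8 h replicate 3 (0.43, adjusted p = 0.0535) and was not called at other times.

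Of the 3 membrane-bound metalloproteinases, which reached 80 units on 3 or more untreated arrays, 0 were higher and 2 lower at 15 h (27.2% and 27.7% of all tested genes) and 24 h (26.7% and 30.7%) of 1 µM. Mmp14, which activates the Mmp2 proenzyme at the cell surface, had 9.53, 9.51 and 9.72 at 5 h, 9.16, 9.00 and 9.33 at 8 h, 8.10, 8.18 and 8.24 at 15 h and 8.57, 8.59 and 8.64 at 24 h. Untreated arrays had 9.61, 9.96 and 10.09. At 5 h 2 of the 3 arrays were below the untreated range, and the difference of -0.33 was not called (adjusted p = 0.0526). With the slide as a block its adjusted p was 0.0244 by the scanner match and 0.0548 by label. Arrays from 8 h on were all below the untreated range, and the change was -0.75 ± 0.11 (adjusted p = 9.47e-06) at 8 h, -1.74 ± 0.11 (adjusted p = 1.25e-11) at 15 h and -1.31 ± 0.11 (adjusted p = 8.95e-10) at 24 h. Mmp14 was thus 3.34-fold lower at 15 h and, between 15 and 24 h, increased by 0.43 ± 0.12 (adjusted p = 0.0267). Mmp17, a protease held by a lipid anchor, had 7.84, 8.18 and 7.96 at 15 h and 7.90, 7.69 and 7.37 at 24 h, against 8.26, 8.64 and 9.14. No array at either time reached the untreated range, and the change was -0.71 ± 0.17 (adjusted p = 0.000977) at 15 h and -1.06 ± 0.17 (adjusted p = 1.28e-05) at 24 h. Mmp24, a neuronal protease that cuts cadherin, was not called.

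The 4 TIMPs were 2 higher and 2 lower at 15 h (27.2% and 27.7% of all tested genes) and 24 h (26.7% and 30.7%) of 1 µM. Timp1, the inducible soluble inhibitor, had 6.44, 6.52 and 6.29 at 15 h and 6.97, 7.06 and 7.02 at 24 h, against 5.19, 5.44 and 6.21 in untreated cultures. Arrays of both times were above all untreated ones, including replicate 2 at 6.21, and the change was 1.49 ± 0.22 (adjusted p = 6.16e-06) at 24 h, 2.8-fold. Timp3, which binds to the matrix and also inhibits Adam17, had 9.74, 9.75 and 9.97 at 15 h and 10.04, 9.98 and 10.12 at 24 h, against 9.18, 9.49 and 9.85. The 24 h arrays lay above the untreated range, by 0.55 ± 0.10 (adjusted p = 7.42e-05), and the 15 h arrays partly within it, with a change of 0.33 ± 0.10 (adjusted p = 0.00909) that was lost without 15 h replicate 3 (0.25, adjusted p = 0.0769). A second Timp3 probe changed by -0.07 at 15 h and 0.94 at 24 h.

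Timp2 and Timp4 fell. Timp2, which also serves as the partner of Mmp14 in activating Mmp2, had 11.04, 11.30 and 11.09 at 8 h, 10.98, 10.88 and 10.81 at 15 h and 10.89, 10.88 and 10.88 at 24 h of 1 µM, against 11.42, 11.73 and 11.92 in untreated cultures. All arrays from 8 h on were below the untreated range, and the change was -0.57 ± 0.09 (adjusted p = 4.05e-05) at 8 h, -0.83 ± 0.09 (adjusted p = 1.16e-07) at 15 h and -0.83 ± 0.09 (adjusted p = 9.75e-08) at 24 h. Timp4, an inhibitor found in heart and brain, had 5.34, 5.43 and 5.27 at 8 h, 4.42, 4.77 and 4.70 at 15 h and 5.02, 4.77 and 5.02 at 24 h, against 5.63, 5.93 and 6.30. It too lay below every untreated array from 8 h on, was detected on 0 of 3 arrays at 15 h, where it was at least 1.73-fold lower (adjusted p = 3.51e-07), and on 1 of 3 at 24 h, with a change of -0.97 ± 0.15 (adjusted p = 1.33e-05). Over the same hours the 8 astrocyte markers measured of 10 summed to 9597 to 10450 units at 8 h, 10160 to 11340 at 15 h and 10300 to 11110 at 24 h, against 12610 to 19200 in untreated cultures. The 9 oligodendrocyte lineage markers, of 11 symbols, summed to 8750 to 8941, 2724 to 2925 and 4708 to 5150 at these times, against 11660 to 14350. The part of these cell types in the falls was not tested.

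**Figure D3:**
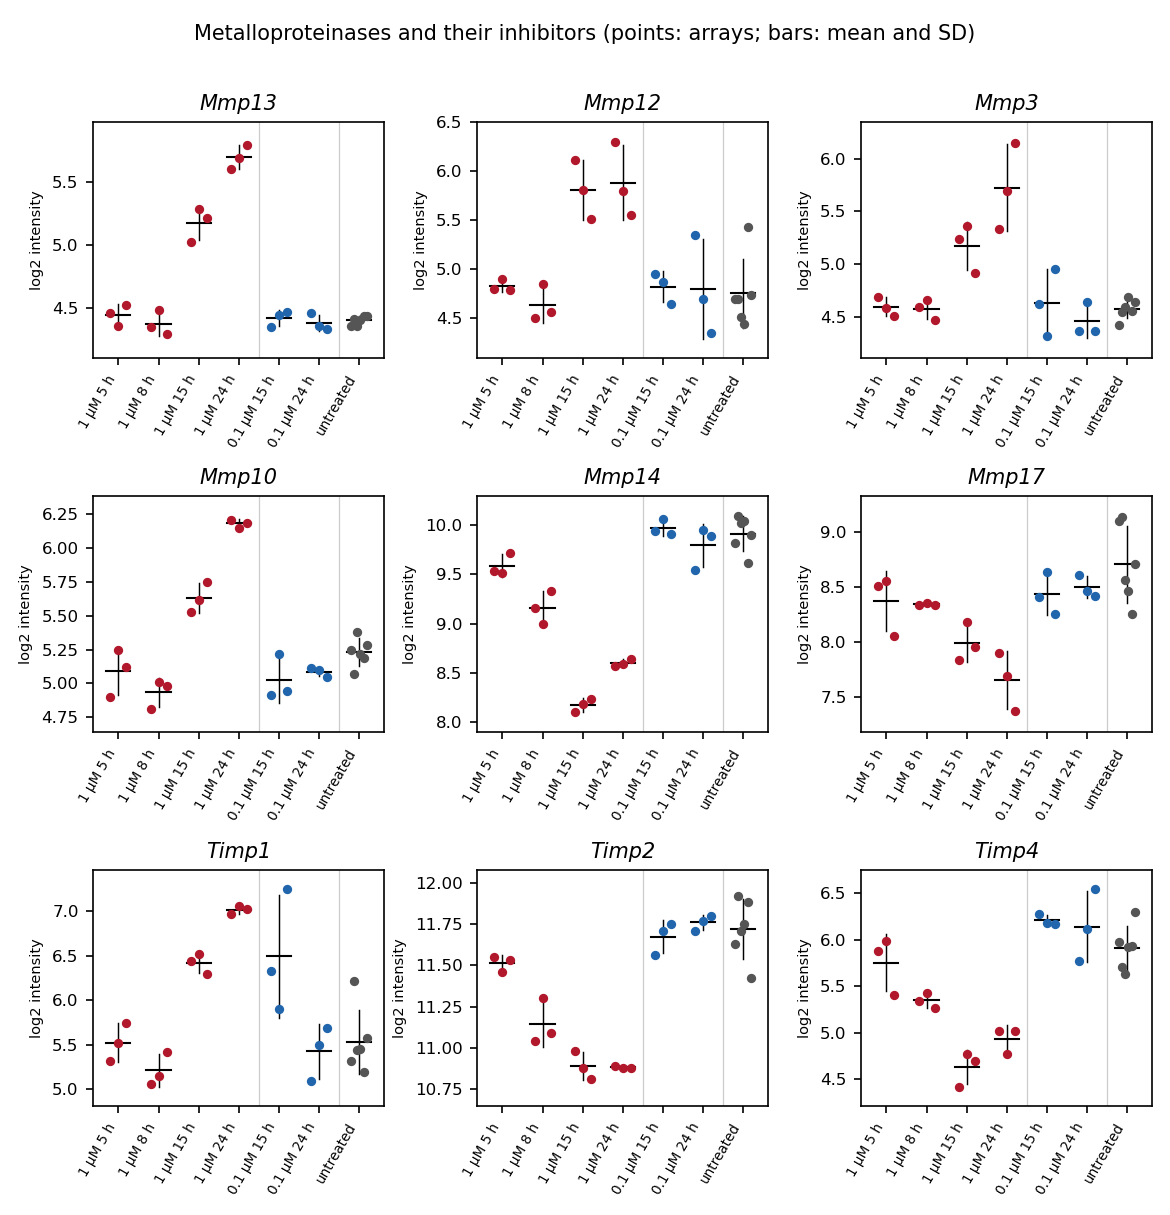
Log2 intensity (vertical axes) of 6 metalloproteinases and 3 TIMPs on each array, by group, with bars for mean and SD. Mmp13, Mmp12, Mmp3, Mmp10 and Timp1 were above the untreated arrays (grey) at 15 and 24 h of 1 µM (red), while Mmp14, Mmp17, Timp2 and Timp4 were below them.

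Among the 6 ADAMTS proteases, 2 were higher and 1 lower at 24 h of 1 µM (26.7% and 30.7% of all tested genes). At 15 h 1 was higher and 1 lower (27.2% and 27.7%). The higher ones, Adamts1 and Adamts19, reached 80 units on 0 and 1 untreated arrays, so nothing is read from these counts. Adamts1, a protease for aggrecan and versican, had 5.75, 5.37 and 6.03 at 8 h, 5.90, 6.21 and 6.42 at 15 h and 6.06, 6.07 and 6.21 at 24 h, against 4.40, 4.60 and 5.03 in untreated cultures, where 1 of 6 arrays detected it. Every array from 8 h on was above the untreated range, with changes of 1.04 ± 0.16 (adjusted p = 2.41e-05) at 8 h and 1.43 ± 0.16 (adjusted p = 1.01e-07) at 24 h. Adamts1 reached 80 units only on arrays at 8, 15 and 24 h of 1 µM, so it is a member only through the groups where it was higher. Adamts5, another aggrecanase that adjoins Adamts1 on chromosome 16 with no gene between, did not follow it. Adamts5 had 5.05, 4.72 and 5.42 at 8 h, 6.03, 5.82 and 5.49 at 15 h and 5.86, 5.95 and 5.92 at 24 h, against 5.43, 5.66 and 6.91 in untreated cultures. The 5 h arrays (5.02 to 5.32) and the 8 h arrays lay below the untreated range. The 5 h difference was not called (-0.70, adjusted p = 0.0681), and the 8 h change was -0.81 ± 0.24 (adjusted p = 0.0102), a call lost without 8 h replicate 2 (-0.64, adjusted p = 0.0807), and 15 and 24 h were not called. Adamts4, the third aggrecanase measured, had 4.84, 5.50 and 4.90 at 15 h and 5.46, 5.55 and 5.33 at 24 h, against 4.94, 5.55 and 5.78, and was not called at any time. Adamts19 was higher by 1.01 ± 0.15 (adjusted p = 5.45e-06) at 24 h and was not called at earlier times. Calls for Adamts15 (-0.42 at 8 h, -0.40 at 24 h) and Adamts7 (-0.51 at 15 h) were lost without 1 array of their own group (-0.27, -0.22 and -0.40 without 8 h replicate 1, 24 h replicate 1 and 15 h replicate 2, adjusted p = 0.217, 0.252 and 0.154).

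The 11 ADAM proteins had 3 higher and 1 lower at 24 h of 1 µM (26.7% and 30.7% of all tested genes) and 2 higher and 1 lower at 15 h (27.2% and 27.7%). Of those that were higher, Adam21 and Adam32 reached 80 units on fewer than 3 untreated arrays, so nothing is read from these counts. Adam11, a non-catalytic member of neuronal membranes, had 4.90, 5.24 and 5.34 at 15 h and 4.70, 5.08 and 4.95 at 24 h, against 6.12, 6.33 and 6.55 in untreated cultures. All 6 arrays of these times were below the untreated range, and the change was -1.18 ± 0.11 (adjusted p = 1.43e-08) at 15 h and -1.43 ± 0.11 (adjusted p = 6.68e-10) at 24 h, 2.69-fold lower. Adam11 was detected on 2 of 3 arrays at 15 h and 1 of 3 at 24 h, so these levels were near background. The 8 neuronal markers measured of 10 summed to 10000 to 10590 units at 15 h and 9394 to 9573 at 24 h, against 16070 to 20470 in untreated cultures, and their part in the fall of Adam11 was not tested. The related non-catalytic Adam22 and Adam23 were not called at 15 or 24 h of 1 µM, although a second Adam23 probe changed by -0.65 at 15 h where the one used changed by 0.03.

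Adam17, the protease that releases tumour necrosis factor, had 8.11, 8.13 and 8.07 at 15 h and 8.64, 8.44 and 8.52 at 24 h of 1 µM, against 7.80, 7.95 and 8.07 in untreated cultures. It separated from the untreated arrays at 24 h, by 0.59 ± 0.08 (adjusted p = 1.51e-06). Adam32 and Adam21, best known from the mouse testis, also increased, Adam21 by 0.66 ± 0.13 (adjusted p = 0.000116) at 15 h and 0.80 ± 0.13 (adjusted p = 1.21e-05) at 24 h. Adam32 had 5.59, 5.67 and 5.67 at 8 h, 6.53, 6.39 and 6.48 at 15 h and 6.68, 6.76 and 6.57 at 24 h, against 4.40, 4.56 and 5.10 in untreated cultures, where it was detected on no array. It was at least 1.5-fold higher at 8 h, 2.65-fold at 15 h and 3.05-fold at 24 h (adjusted p = 1.25e-06, 4.65e-11 and 7.19e-12). Adam32 reached 80 units only on arrays at 8, 15 and 24 h of 1 µM, so it is a member only through the groups where it was higher. Adam9, a protease of many tissues that adjoins Adam32 on chromosome 8, had 7.59, 7.18 and 7.02 at 15 h and 7.45, 7.12 and 7.16 at 24 h, against 6.17, 6.73 and 7.60. These ranges overlapped and no change was called, but with the slide as a block the 15 h and 24 h changes of 0.46 and 0.43 passed (adjusted p = 0.00804 and 0.0105) by the scanner match, and not by label (adjusted p = 0.151 and 0.167). Adam19, or meltrin beta, was not called at any time of 1 µM, with 8.10, 7.92 and 8.07 at 24 h, against 8.05, 8.22 and 8.31. Adam15, Adam1a and Adam30 were not called against untreated cultures at either dose, and only Adam15 at 24 h of 1 µM passed with the slide as a block by the scanner match (-0.21, adjusted p = 0.0459), and not by label (adjusted p = 0.0765).

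At 0.1 µM the members moved at 15 h and none was called at 24 h. At 15 h of 0.1 µM, 11 members were higher and 1 lower, where 16.5% of the tested genes were called (8.52% higher, 8.02% lower). These were 5 collagens, 2 laminins, 2 TIMPs, Mmp2 and Adam23 above untreated, and Adam19 below. Of the 35 members already at 80 units on at least 3 untreated arrays, 10 were higher and 1 lower. A fit of these 2 groups alone called 4 members, Col18a1, Col5a1, Lamc1 and Mmp2, and leaving out single arrays gave 9 to 15.

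Col18a1 again moved most at 15 h of 0.1 µM, with 7.40, 7.40 and 7.53, against 5.22, 5.80 and 6.53 in untreated cultures. All 3 arrays were above the untreated ones, by 1.59 ± 0.21 (adjusted p = 1.95e-05), and 8 of the 52 members had no overlap with them (14.3% of the tested genes). Col4a5 had 7.55, 7.82 and 7.92, against 6.26, 6.98 and 7.29, and did not overlap either, with a change of 0.92 ± 0.20 (adjusted p = 0.00316). Col16a1 had 8.59, 8.56 and 9.00, against 7.65, 7.88 and 8.67, a change of 0.73 ± 0.16 (adjusted p = 0.00322) whose groups overlapped only through untreated replicate 2 at 8.67. This gene was the 1 collagen that was higher at 0.1 µM and lower at 1 µM at the same 15 h, and the 2 doses differed by -1.80 ± 0.18 (adjusted p = 5.02e-08).

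Col5a1 had 7.28, 7.54 and 7.48 at 15 h of 0.1 µM and Lamc1 had 8.16, 8.30 and 8.28, both above all untreated arrays, by 0.59 ± 0.13 (adjusted p = 0.00247) for Col5a1 and 0.61 ± 0.12 (adjusted p = 0.0011) for Lamc1. Mmp2 had 5.57, 5.35 and 5.49, also above the untreated range, by 0.64 ± 0.14 (adjusted p = 0.00287). Col4a1 had 8.08, 8.38 and 8.59 and overlapped the untreated arrays, and its change of 0.46 ± 0.14 (adjusted p = 0.023) was lost without 0.1 µM 15 h replicate 2 or 3 (0.45 and 0.34, adjusted p = 0.0837 and 0.155). Lamb2, a beta chain enriched at synapses and vessels, changed by 0.60 ± 0.17 (adjusted p = 0.0206) and was lost without the same replicates (0.52 and 0.50, adjusted p = 0.111 and 0.109). Untreated replicates 2 and 4 had the highest untreated levels of Lamb2 too, at 7.57 and 7.50.

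Timp1 was uneven at 15 h of 0.1 µM, with 6.33, 5.90 and 7.25, against 5.19, 5.44 and 6.21 in untreated cultures. Replicate 3 stood above the others, replicate 2 lay inside the untreated range, and the change of 0.96 ± 0.22 (adjusted p = 0.00489) became 0.58 (adjusted p = 0.0652) without replicate 3. Timp3 had 9.77, 9.84 and 9.80, inside the untreated range, and its change of 0.31 ± 0.10 (adjusted p = 0.04) kept no call without any 1 of these 3 arrays or without untreated replicate 1, 5 or 6. Adam23 had a change of 0.61 ± 0.12 (adjusted p = 0.00155) with no overlap, and its second probe one of 0.83. Adam19 fell below all untreated arrays, with 7.94, 7.67 and 7.68 against 8.05, 8.22 and 8.31, and its change was -0.43 ± 0.09 (adjusted p = 0.00162).

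Some markers of other cell types moved at the same time point. At 15 h of 0.1 µM Gfap was higher by 1.57 ± 0.35 (adjusted p = 0.00378), the leptomeningeal marker Igfbp2 by 1.31 ± 0.18 (adjusted p = 2.49e-05) and the mural marker Acta2, a smooth muscle actin, by 1.11 ± 0.17 (adjusted p = 0.000148), while Dcn, which encodes decorin, changed by -1.34 ± 0.25 (adjusted p = 0.000891). The 4 leptomeningeal markers measured of 12 summed to 1922 to 2066 units, against 1191 to 1605 in untreated cultures, and the 3 mural markers of 9 to 261 to 284.2, against 202.8 to 246.1. The 8 astrocyte markers of 10 summed to 17360 to 19340, against 12610 to 19200, and the 2 endothelial markers of 10 to 52.78 to 65.41, against 58.12 to 78.49. Igfbp2 and Acta2 are part of these sums, so a higher sum does not show that the other markers of its list were higher. The leptomeningeal markers Ptgds and Igf2 and the mural markers Pdgfrb and Cspg4 were measured and are not given singly. Among leptomeningeal markers Foxc1, Slc6a13 and Lum were not measured, and among mural markers Rgs5 and Tagln. The part of these cell types in the result was not tested. Without untreated replicates 5 and 6 together, Col4a1 (0.33, adjusted p = 0.0829), Lamb2 (0.42, adjusted p = 0.0805) and Timp3 (0.21, adjusted p = 0.112) lost their calls.

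**Figure D4:**
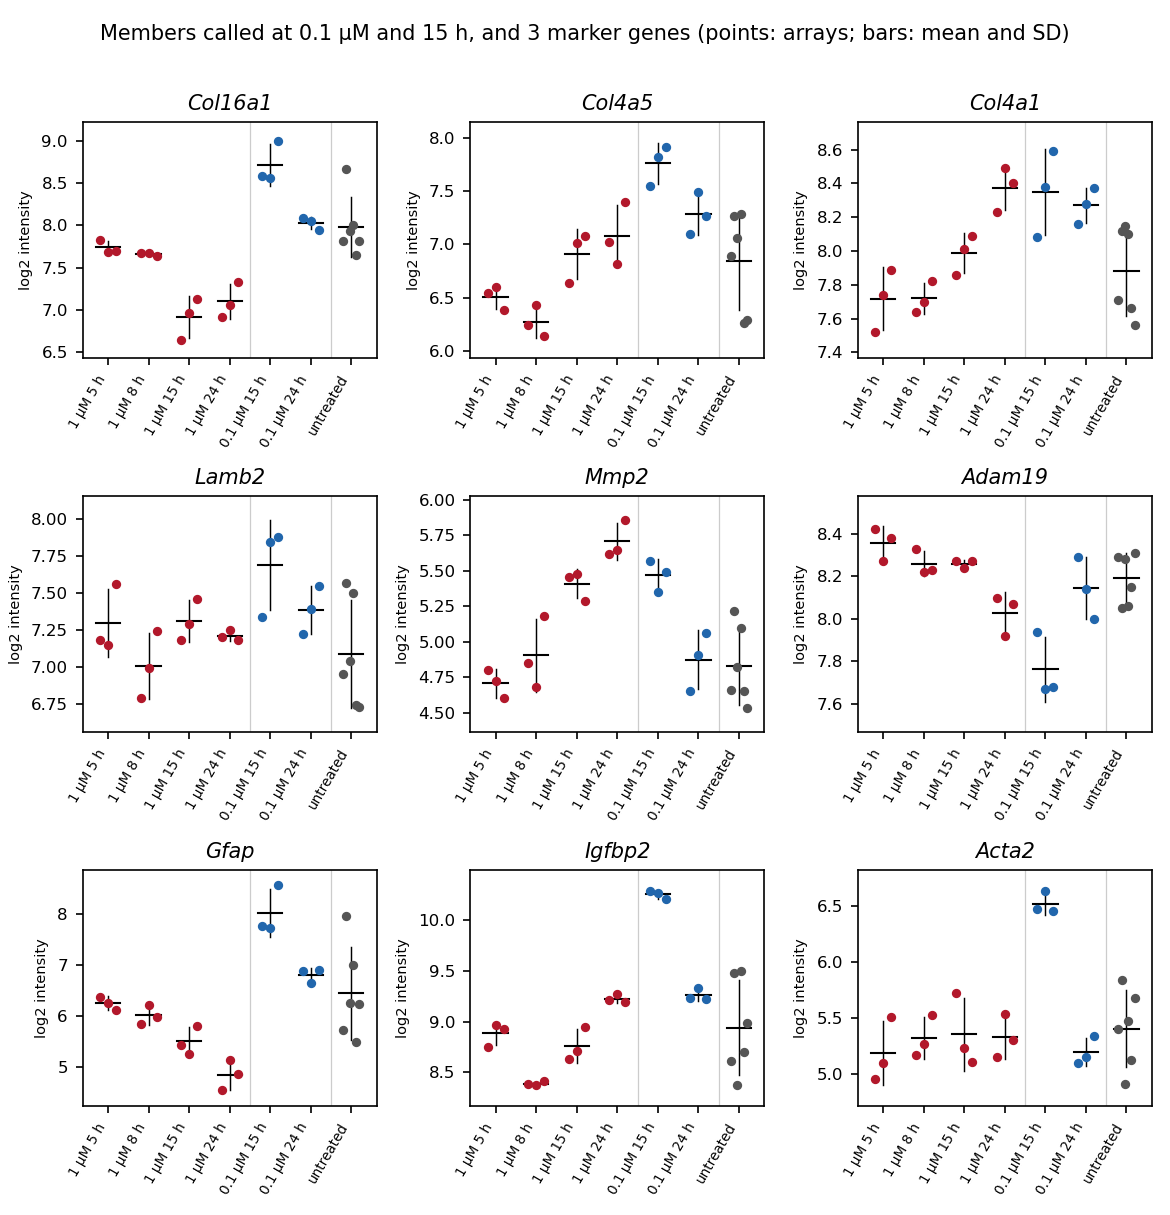
Log2 intensity (vertical axes) of 6 members and of the markers Gfap, Igfbp2 and Acta2 on each array, by group, with bars for mean and SD. At 15 h of 0.1 µM (blue) Col16a1, Col4a5, Gfap, Igfbp2 and Acta2 were higher than untreated on average and Adam19 lower, and the untreated arrays (grey) of Gfap and Igfbp2 were spread widely.

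At 24 h of 0.1 µM limma called 0 members, where 2.24% of the tested genes were called (0.698% higher, 1.54% lower), and 2 members had no overlap with the untreated arrays (6.34% of the genes). At an unadjusted p below 0.05, 5 members were higher and 4 lower, and the smallest adjusted p was 0.055. Col18a1 had 5.95, 5.49 and 5.80 and Timp1 5.09, 5.49 and 5.69, with no array above the untreated range of either gene (5.22, 5.80 and 6.53 for Col18a1 and 5.19, 5.44 and 6.21 for Timp1). With the slide as a block 2 members were called by the scanner match and 1 by label, with the authors' ratios 4, without untreated replicate 4 another 4, and without untreated replicates 2 and 4 together 7. From 15 to 24 h at 0.1 µM, 8 members decreased and 2 increased, where 11.7% of the genes were called (4.56% upward, 7.17% downward), and 15 had no overlap (35.3% of the genes). This step kept 2 calls without 0.1 µM 24 h replicate 1, and 6 and 4 without 0.1 µM 15 h replicates 2 and 3. Col18a1 changed by -1.70 ± 0.24 (adjusted p = 9.45e-05), Timp1 by -1.07 ± 0.26 (adjusted p = 0.00877), Col16a1 by -0.69 ± 0.18 (adjusted p = 0.0181) and Col5a1 by -0.59 ± 0.15 (adjusted p = 0.0103), and Mmp2, detected on no array at 24 h of 0.1 µM, was at least 1.32-fold lower (adjusted p = 0.0179).

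The test of the difference itself, the dose by time interaction, asked whether the signed 1 µM minus 0.1 µM difference changed between 15 and 24 h. Upward means a higher signed difference at 24 h, which includes a negative difference that shrank, as for Col16a1 (-1.80 at 15 h, -0.92 at 24 h). The interaction was called upward for 17 members and downward for 3, where 16.7% of the tested genes were called (9.09% upward, 7.6% downward). Of the 35 members at 80 units on at least 3 untreated arrays, 9 were called upward and 2 downward. The other 17, which passed the signal threshold mainly through treated arrays, had 8 upward and 1 downward. The median interaction was 0.34 over the members and -0.02 over all genes. Col18a1 had the largest, 2.69 ± 0.34 (adjusted p = 2.49e-05), followed by Timp1 with 1.67 ± 0.36 (adjusted p = 0.00303) and Col5a1 with 1.07 ± 0.21 (adjusted p = 0.00119). For Col18a1 and Col5a1 the 1 µM level increased after 15 h while the 0.1 µM level decreased, each by a called change.

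Set against each other, the doses differed for 32 members at 24 h (21 higher and 11 lower at 1 µM, where 53.7% of the genes were called, 26.7% higher and 27% lower) and for 28 at 15 h (15 higher and 13 lower, where 51.4% were called, 26% higher and 25.4% lower). The 35 members at 80 units on at least 3 untreated arrays had 8 higher and 10 lower at 24 h, and 6 and 11 at 15 h. The other 17, which passed mainly through treated arrays, had 13 and 1 at 24 h, and 9 and 2 at 15 h. The doses had no overlap for 36 members at 24 h and 29 at 15 h (63.7% and 61.4% of the genes). At 24 h Col18a1 was higher at 1 µM by 3.37 ± 0.24 (adjusted p = 1.5e-10) and Fn1 by 2.02 ± 0.16 (adjusted p = 5.07e-10), and Thbs2 was at least 5.85-fold higher. Lower at 1 µM were Adam11, with a difference of -1.55 ± 0.13 (adjusted p = 2.2e-09), Mmp14, with -1.19 ± 0.12 (adjusted p = 4.22e-08), and Timp2, with -0.88 ± 0.11 (adjusted p = 4.38e-07). At 15 h the difference for Col18a1 was 0.68 ± 0.24 (adjusted p = 0.0215), which was lost without 1 µM replicate 3 or 0.1 µM replicate 1 or 2 (0.65 to 0.66, adjusted p of 0.0549 to 0.0584). Col4a5 and Adam23 were lower at 1 µM than at 0.1 µM at 15 h, with differences of -0.85 ± 0.23 (adjusted p = 0.00375) and -0.59 ± 0.14 (adjusted p = 0.00149).

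Of a wider list of 93 gene symbols for matrix assembly, cleavage and sensing, some of them names of the same gene, 64 genes were measured. At 15 h of 1 µM 27 were higher and 18 lower (27.2% and 27.7% of all tested genes), and at 24 h 26 and 15 (26.7% and 30.7%). The totals called, 45 and 41 of 64, compare with 54.9% and 57.4% of all tested genes. At 15 h of 0.1 µM 24 were higher and 4 lower (8.52% and 8.02% of all tested genes). Of 14 genes for collagen folding and cross-linking on it, 9 were higher and 2 lower at 24 h of 1 µM, where 26.7% and 30.7% of all tested genes were, with a median change of 0.77 against -0.05 over all tested genes. Serpinh1, the collagen chaperone of the endoplasmic reticulum, which is also a heat shock gene, changed by 3.10 ± 0.11 (adjusted p = 3.43e-15) at 15 h and 3.17 ± 0.11 (adjusted p = 1.44e-15) at 24 h. Ccn2, a matrix-associated growth factor, changed by 3.01 ± 0.16 (adjusted p = 5.79e-13) at 24 h, and Plaur, the receptor of the urokinase protease, by 2.87 ± 0.11 (adjusted p = 3.14e-15). The brain proteoglycans Bcan and Ncan, which the ADAMTS proteases cleave, changed by -1.75 ± 0.14 (adjusted p = 4.79e-10) and -1.20 ± 0.13 (adjusted p = 4.48e-08) at 24 h, and the heparan sulfate proteoglycan Sdc3 by -1.35 ± 0.08 (adjusted p = 1.92e-12). The integrin chain Itgb5 changed by -1.12 ± 0.14 (adjusted p = 4.04e-07) at 15 h.

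By the Pearson correlation of the 7 group means, the genes other than members with patterns most like Col18a1 were Rps19 and Cd109 (0.991 each) and Tgfb2 (0.99). For Thbs2 they were Fam110c, Liph and Slc12a4 (0.999 each), and for Fn1 they were Acot2 and Taf7l (0.996 each) and Tgoln1 (0.995). These points share arrays and a common untreated group, and with 7 points the values are a description.

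The signal threshold left out 79 genes with matching names, of which 45 were detected on no array and 23 were tested. They included Sparc, Thbs1, Col1a1, Col1a2, Col3a1, Lama1, Lamb1-1 and Adam10. The third highest signal was 80.3 for Adam1a, 84.6 for Lamb3 and Mmp13 and 84.9 for Mmp2 just inside the threshold, and 79.4 for Lama5 and Mmp15, 78.6 for Mmp11 and 78.4 for Col5a3 just outside it. At the other end, 22 members reached 80 on all 24 arrays.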

How the data were processed

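The arrays were Illumina MouseRef-8 V1.1. BeadStudio 3.2.6 exported scanner values without normalisation, per the file headers: an intensity and detection score (a fraction from 0 to 1) for each gene. A high score means detected, and detection at 0.01 means that 1 minus the score was below 0.01. The authors' deposited table of signals gives the intensity of 24691 probes, 24613 with values. It holds no detection score, so detection of each probe was estimated from the scanner scores and not read directly. Statements that a probe was not detected, and the lower bounds of folds, rest on this estimate. The authors' normalised table holds a linear ratio, recomputed here as signal over the array median and over the untreated mean (largest difference 1.87e-05). It served as an alternative only. For treated arrays the deposited signals matched scanner values of another slide in the same group (99.9% of 14487 genes), so groups were unaffected and slides were taken from the matching column. Each treated group kept 1 slide position, and position and group cannot be told apart.

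Here, with limma 3.58.1 in R 4.3.3, background was corrected (nec, offset 16), intensities were quantile normalised, and log2 values were computed from the deposited signals. Probes detected at 0.01 on at least 3 arrays were kept (13547), with the brightest per gene (10886 genes). Some members had other probes that were not kept, such as those of Col18a1, Mmp13 and Adam11 (detected on 0 arrays) and Adamts1 (on 1). Because probes differ in response, levels are not compared between genes. A model of 7 group means without a block (17 residual degrees of freedom) was fitted, and 13 contrasts were tested and called at adjusted p below 0.05. Where a probe was not detected on any array of a group, a fold is given as a lower bound, the brighter mean against the lowest detected signal. The number of arrays limits precision.

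The members and lists were chosen with earlier results of these data known. Per-array values are given for the 4 largest called rises and falls of each comparison with untreated cultures and for genes listed beforehand, and other members by range or 1 value. Of the wider list the 3 largest called rises and falls at 15 and 24 h were named. Promoter windows came from RefSeq (GRCm38.p6), which held 35 of the 52 members. The values of 1 member are not reported here, and it is counted among the members only. Alternatives were other background, normalisation and filter settings, the mean of all kept probes, fits restricted to compared groups, a block by slide, weights per array, a variance trend, the authors' ratio, and leaving out arrays. The fit was tested on simulated data.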

Additional observations from a re-analysis of the deposited data

Results flagged for a closer look

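Of 52 members checked among the 6 untreated arrays, 6 had 1 array far from the other 5 by Dixon's test, where chance would give about 1 in 20. These were Adam32 (replicate 6, 5.10 log2 intensity), Col6a3 (replicate 6, 5.01), Adamts5 (replicate 5, 6.91), Mmp12 (replicate 5, 5.43), Col16a1 (replicate 2, 8.67) and Timp1 (replicate 2, 6.21). Members share the same arrays and the share over all tested genes was not computed, so nothing is read from this count.

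The effect of dose differed between 24 and 15 h, by the interaction test in limma, for 20 members (16.7% of the tested genes). Values are the 1 µM minus 0.1 µM difference at 24 h less that at 15 h, on the log2 scale. Among them it was positive for Col18a1 (2.69), Timp1 (1.67), Col5a1 (1.07), Thbs2 (1.03), Lamb3 (0.90), Mmp2 (0.89), Lamc1 (0.88), Col16a1 (0.87), Adamts19 (0.83), Adam17 (0.80), Fn1 (0.79), Mmp3 (0.73), Mmp14 (0.60), Timp3 (0.60), Mmp13 (0.56) and Mmp10 (0.50). It was negative for Col23a1 (-0.91), Adam11 (-0.64) and Adam19 (-0.61). Thbs2, Lamb3, Mmp3 and Mmp13 were detected on no array of 0.1 µM, Mmp2 on none at 24 h of 0.1 µM and Col23a1 on none of 1 µM at 15 or 24 h, so their values include differences at background level.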

How the results depend on the processing

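Of 152 called gene and comparison results, 116 kept direction and call in all of up to 39 alternatives, and 0 of 5896 recomputed values reversed. Counts of called members that moved by over 1.5 times were as follows. At 5 h (2 called) there were 1 with no filter, 0 in the fit of only the groups compared, 4 with the replicate block by slide, 7 with array weights, 8 without untreated replicates 5 and 6 together, 1 without 2 and 4 together, and 0 to 6 without single arrays. At 8 h (17) there were 9 in the fit of only the groups compared and 10 to 18 without single arrays, and at 15 h of 0.1 µM (12) 4 and 9 to 15. At 24 h of 0.1 µM (0) there were 1 without background correction, 1 with offset 50, 4 with median centring, 1 with no filter, 1 with detection on at least 12 arrays, 2 with the replicate block by slide, 1 with the block by label, 4 with the authors' ratio, 7 without untreated replicates 2 and 4 together and 0 to 4 without single arrays. For the step from 5 to 8 h (5) there were 3 with median centring, 3 with detection on at least 12 arrays, 8 in the fit of only the groups compared, 11 with array weights and 2 to 5 without single arrays. For the step from 15 to 24 h (13) there were 8 with detection on at least 12 arrays, 22 with array weights and 8 to 15 without single arrays, and for the 0.1 µM step (10) 2 to 11. Median centring shifted the median of all genes to -0.15 at 24 h of 1 µM, -0.14 and -0.21 at 15 and 24 h of 0.1 µM and -0.11 from 8 to 15 h, and split the calls 9 higher and 2 lower at 15 h of 0.1 µM and 3 and 0 from 5 to 8 h. Arrays of the same slide by the scanner match deviated together (mean correlation 0.214 over 81 pairs, lowest -0.0731) and those of other slides did not (-0.106), and by the labels 0.0982 and -0.0482, so the number was not taken as a pairing. The untreated replicates 2 and 4 together were chosen as an alternative after seeing the data. Signals near background limit Mmp3, Mmp13, Lamb3 and Mmp2 to small measurable changes.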
